A study of Homo sapiens with 4 samples.

Results

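The potassium channel genes were taken as every symbol of the deposited gene table made of KCN, further letters and a number, which gave 94 genes of 23615 symbols. Of these, 79 encode pore subunits: 40 of voltage-gated channels, 16 of inward rectifiers, 15 of tandem-pore (K2P) channels and 8 of calcium-activated and related Slo channels. The other 15 encode auxiliary subunits. Poly-A RNA was sequenced from unsorted day 14 cardiomyocyte cultures of RUES2, a human embryonic stem cell line, in 4 libraries. In both groups the cells were induced with 100 ng/ml activin A and then 5 ng/ml BMP4 together with 1 µM CHIR-99021, an activator of Wnt/β-catenin signaling, a condition called A100/B5. For 2 biological replicates, cardiac progenitor cells (CPC) went on to cardiomyocytes. The protocol for such cells includes, in a subset of cultures, 1 µM XAV-939 (XAV) at day 3, a tankyrase inhibitor that blocks Wnt/β-catenin signaling, and the labels do not say whether these CPC cultures received it. For the other 2, the cells received 200 ng/ml VEGF, 5 ng/ml bFGF and 10 ng/ml BMP4 from day 2, became hemogenic endothelial cells and were given 2 µM XAV at day 5 (ECsXAV). The routes therefore differ in growth factors, medium and XAV treatment together, and these cannot be told apart. Because all libraries come from 1 cell line, the spread between replicates does not include differences between donors.

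Potassium channels let potassium leave the cell and so return the membrane to its resting potential after each action potential. Voltage-gated channels repolarize the cardiomyocyte, inward rectifiers hold the resting potential, K2P channels carry background leak, and small-conductance calcium-activated channels link the membrane to cytosolic calcium. Auxiliary subunits carry no pore and set how a pore subunit traffics and gates. Cardiomyocytes made from stem cells are known for an immature resting potential and for low inward rectifier current.

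Every pore subunit carries a short selectivity filter that admits potassium, and its codons are shown here for related genes whose levels are compared in the following paragraphs. The filter was searched in frame in the reference coding sequences as codons for serine or threonine, any residue, glycine, then tyrosine, phenylalanine or leucine, and glycine. Each of the 40 voltage-gated, 15 K2P and 8 calcium-activated genes held it, as did all 15 inward rectifiers with a sequence in the annotation, while none of the 15 auxiliary genes did. Among all 19553 protein-coding genes with a reference coding sequence, 5.97% held the same codons. Of the K2P genes, 12 held 2 matches, 2 held 1 and 1 held more. Of the voltage-gated genes, 38 held 1 match and 2 held 2. A match is to the codon pattern only, so not every match in a gene need be a filter. In KCNH2 the matches lay at codons 599 to 603, with CTG as the fourth codon, and at codons 624 to 628, with TTC. Capitals mark the 15 bases of the filter in windows of 51 coding bases, each inside a single exon, with the second of 2 matches shown for KCNH2 and for KCNK3 (GRCh37, written 5′ to 3′ on the strand of the gene).
KCNH2, chr7:150648579-150648629, minus strand: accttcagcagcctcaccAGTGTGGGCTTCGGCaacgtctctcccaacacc
KCNH7, chr2:163291751-163291801, minus strand: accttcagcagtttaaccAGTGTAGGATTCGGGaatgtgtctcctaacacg
KCNJ5, chr11:128781595-128781645, plus strand: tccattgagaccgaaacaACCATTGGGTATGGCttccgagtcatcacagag
KCNJ4, chr22:38823706-38823756, minus strand: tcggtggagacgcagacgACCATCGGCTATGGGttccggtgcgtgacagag
KCNJ8, chr12:21919482-21919532, minus strand: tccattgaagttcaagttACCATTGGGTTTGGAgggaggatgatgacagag
KCNJ11, chr11:17409219-17409269, minus strand: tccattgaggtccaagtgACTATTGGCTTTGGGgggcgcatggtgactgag
KCNN1, chr19:18096173-18096223, plus strand: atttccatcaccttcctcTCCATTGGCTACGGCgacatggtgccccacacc
KCNN2, chr5:113798798-113798848, plus strand: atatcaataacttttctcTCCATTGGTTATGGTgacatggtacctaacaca
KCNK3, chr2:26950828-26950878, plus strand: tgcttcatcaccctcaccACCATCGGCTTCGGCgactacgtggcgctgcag
The windows of KCNH2 and KCNH7 were identical at 41 of 51 bases, as were those of KCNJ8 and KCNJ11. KCNN1 and KCNN2 shared 39 bases, and KCNJ5 and KCNJ4 shared 36. In each of these pairs 12 of the 15 filter bases were the same.

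Levels are FPKM, fragment numbers scaled to the exon length of a gene and to the mapped fragments of the library, so they can be compared between genes as levels per length. The total depth of the libraries is unknown, but the smallest steps between low values gave relative depths of 50.1% to 100% of the deepest library, with ECsXAV replicate 2 the shallowest. Summed over 8 genes, cardiomyocyte markers reached 13339 to 13801 FPKM in ECsXAV and 12222 to 12855 FPKM in CPC cardiomyocytes, against 10.8 to 12.3 and 10.4 to 12.7 FPKM for 8 endothelial markers. Smooth muscle and pericyte markers summed to 324 to 366 FPKM in ECsXAV and 199 to 210 FPKM in CPC cardiomyocytes, and hepatic and endoderm markers to 30.9 to 37.1 and 16.6 to 18.5 FPKM. Most of the hepatic and endoderm sum came from APOA1 at 15.9 to 20.6 FPKM. AFP had 11.4 and 9.70 FPKM in ECsXAV against 0.199 and 0.124 FPKM in CPC cardiomyocytes. AFP and TTR were the 2 of these 8 markers called by the criterion given below, both higher in ECsXAV, beside 1.44% of all genes tested. Blood markers summed to 3.75 to 5.89 and 1.26 to 1.53 FPKM with PTPRC at 0, and skeletal muscle markers to 416 to 500 and 440 to 537 FPKM with MYF5 and MYF6 at 0. Most of the skeletal muscle sum came from CKM at 309 to 440 FPKM and ACTN3 at 37.2 to 130 FPKM. MYOD1, MYOG, MYH3 and MYH8 did not exceed 0.430 FPKM in any library. Most of the endothelial sum came from KDR at 7.06 to 10.8 FPKM. Of the 8 endothelial markers, 4 were higher in both ECsXAV libraries and 0 in both CPC libraries. In such bulk RNA, fewer cells of a type and less RNA per cell cannot be told apart.

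Only a minority of the potassium channel genes were expressed at appreciable levels in these cardiomyocytes. A mean of at least 1 FPKM over the 4 libraries was reached by 28 of the 94 genes. A further 9 lay between 0.5 and 1 FPKM, 9 between 0.1 and 0.5 FPKM, 39 above 0 but under 0.1 FPKM, and 9 were listed at 0 in every library. Auxiliary genes and inward rectifiers are thus represented by 7 of 15 and 5 of 16 genes at 1 FPKM or more, voltage-gated pore subunits by 11 of 40, calcium-activated and Slo channels by 3 of 8 and K2P channels by 2 of 15. KCNIP2, an auxiliary subunit, had the highest mean level and ranked at the 98.6th percentile of all symbols. By mean level KCNH2 came next at the 91.8th percentile, then KCNJ5, KCNIP4 and KCNQ5, each between 15.5 and 27.5 FPKM in every library. The order of KCNH2 and KCNJ5 is not resolved, since their ranges overlapped and KCNJ5 was the higher in CPC replicate 1. KCNJ5 was above KCNIP4 in each of the 4 libraries. By mean over the 4 libraries, the highest members of the remaining subfamilies were KCNN2 at 8.10 to 14.1 FPKM among calcium-activated channels and KCNK3 at 0.386 to 2.05 FPKM among K2P channels, although in CPC replicate 1 KCNK3 was below KCNK6, KCNK13 and KCNK1.

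**Figure D1:**
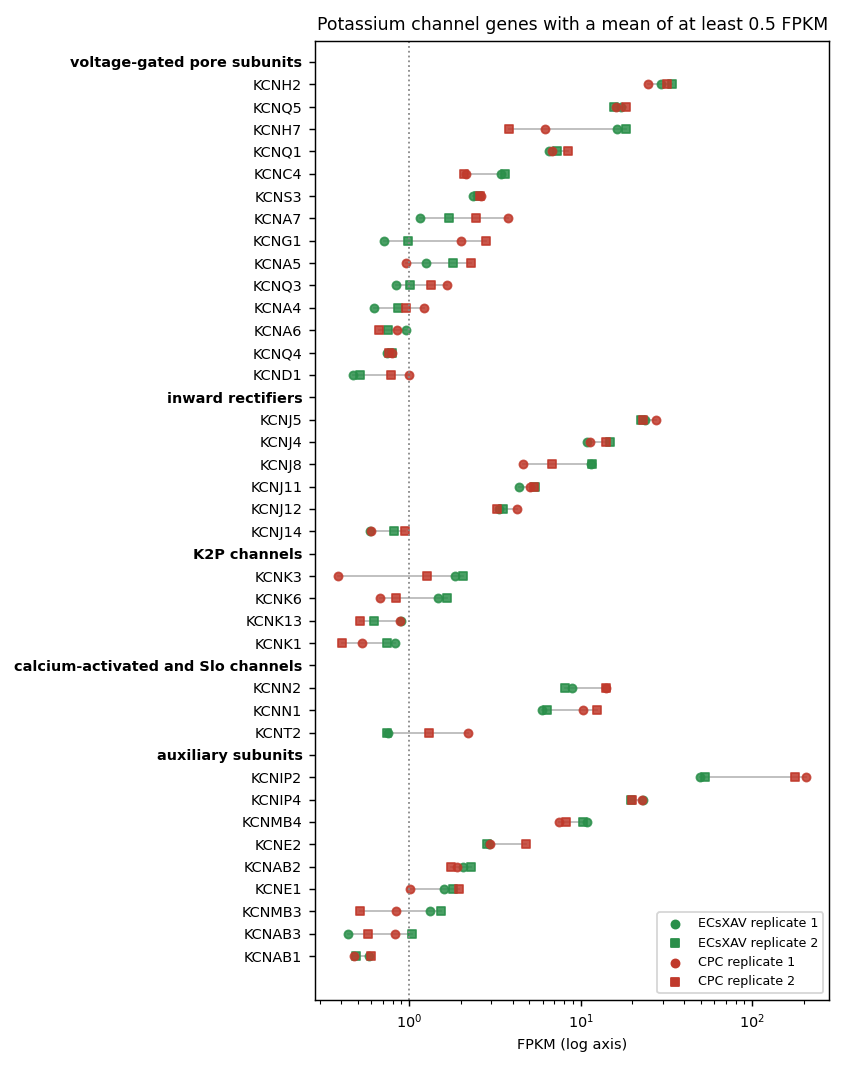
FPKM (log axis) of the reported potassium channel genes with a mean of at least 0.5 FPKM, grouped by subfamily. Green marks are ECsXAV and red marks CPC cardiomyocytes, circles replicate 1 and squares replicate 2, and the dotted line is 1 FPKM; KCNIP2 in CPC cardiomyocytes (179 and 206 FPKM) lies above every other point, and KCNH7 and KCNIP2 show the widest gaps between green and red among genes above 10 FPKM in any library.

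Summed FPKM of all 94 genes were 256 and 268 in ECsXAV and 404 and 387 in CPC cardiomyocytes. This gap came with KCNIP2, which made up 19.5% and 19.8% of the sum in ECsXAV and 51% and 46.2% in CPC cardiomyocytes. Without KCNIP2 the sums were 206 and 215 against 198 and 208 FPKM, and the groups overlapped. The pore subunits alone summed to 163 and 174 against 159 and 169 FPKM, again overlapping. Within them, calcium-activated and Slo channels summed to 15.8 and 15.7 FPKM in ECsXAV and 27.3 and 28.6 FPKM in CPC cardiomyocytes, and K2P channels to 5.22 and 5.52 against 2.62 and 3.22 FPKM. These sums have no test beyond the separation of the libraries, since 2 libraries against 2 cannot give a two-sided exact permutation p below 0.333.

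**Figure D2:**
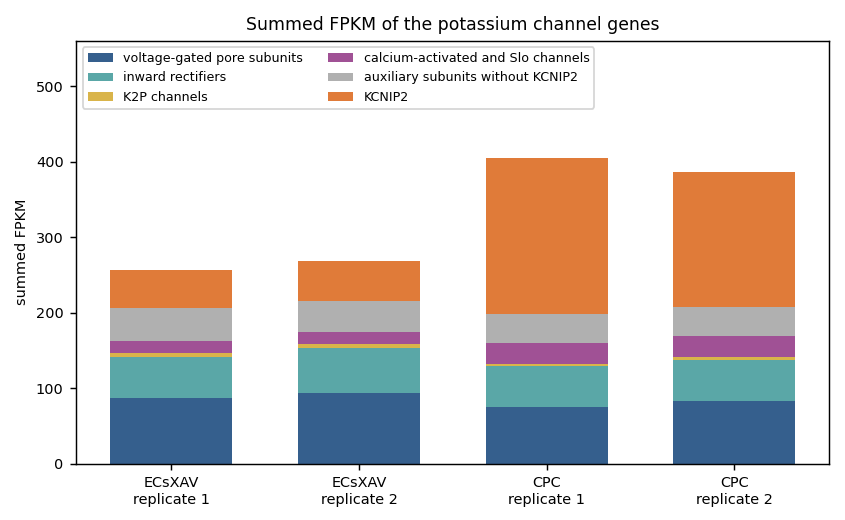
Summed FPKM of the potassium channel genes in each library, stacked by subfamily with KCNIP2 drawn apart from the other auxiliary subunits. The orange KCNIP2 block grows from about 50 FPKM in both ECsXAV libraries (49.9 and 53.0) to 206 and 179 FPKM in CPC cardiomyocytes, while the stack beneath it stays between 198 and 215 FPKM.

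The question of the comparison is how alike the cardiomyocytes from both routes are. Differences were fitted with limma on log2(FPKM + 1) as CPC minus ECsXAV over the 12398 genes with a mean of at least 1 FPKM. A gene was called where FPKM + 1 differed more than 2-fold between the groups with a Benjamini-Hochberg adjusted p under 0.05. Of the 28 potassium channel genes tested, 2 were called: KCNIP2, higher in CPC cardiomyocytes, and KCNH7, higher in ECsXAV cardiomyocytes. With no filter on low FPKM neither was called (limma adjusted p = 0.0526 and 0.0910). Over all genes tested, 2.15% were called, 1.44% as higher in ECsXAV and 0.71% as higher in CPC cardiomyocytes. The median log2 fold change of the 28 genes was 0.04, against -0.0045 for all genes tested. For 20 of the 28 the 95% confidence interval lay within a 2-fold change of FPKM + 1 in either direction, as it did for 10874 of the 12398. This scale understates changes of low genes. KCNK6 and KCNMB3 are among the 20, yet their mean FPKM were 2.07-fold and 2.11-fold higher in ECsXAV. Groups did not overlap for 17 of the 28 genes, 8 higher in ECsXAV and 9 higher in CPC, beside 49.8% of all genes tested (25.4% and 24.4%). An unadjusted p under 0.05 was reached by 13, beside 18.2% of all genes.

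**Figure D3:**
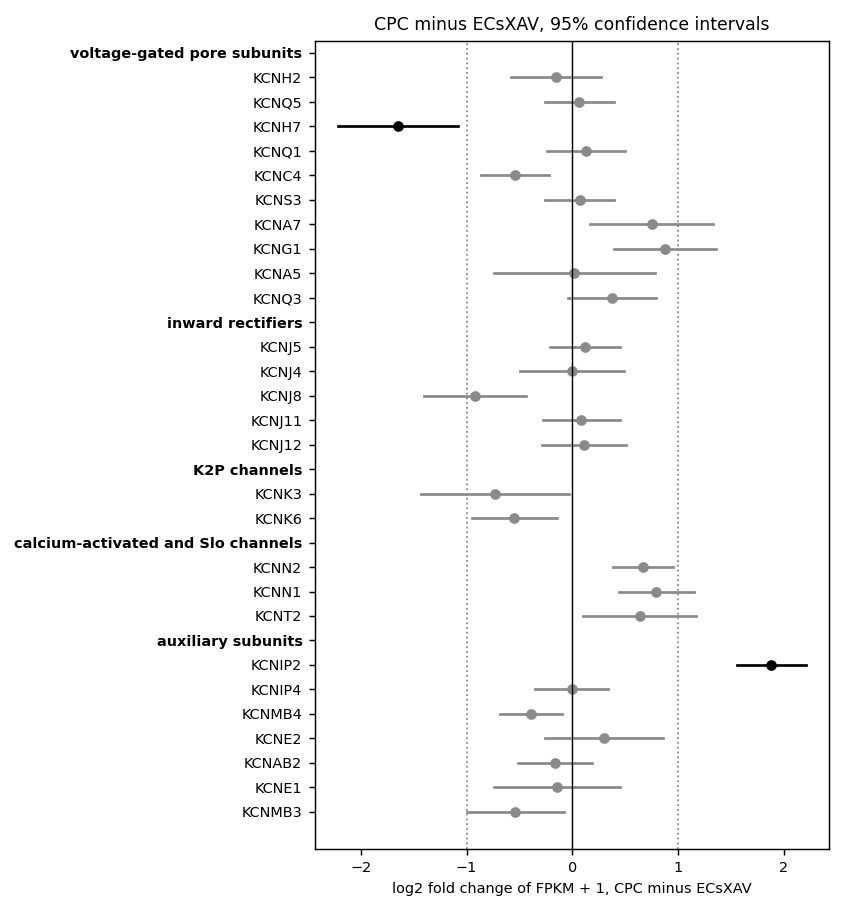
Log2 fold change of FPKM + 1 (CPC minus ECsXAV) of the tested potassium channel genes reported here, with points for the estimate and lines for the 95% confidence interval from limma. Black marks the called genes, KCNIP2 at 1.88 and KCNH7 at -1.64, grey the others, and dotted lines a 2-fold change of FPKM + 1.

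KCNIP2, which encodes KChIP2, a calcium-binding partner that brings Kv4 pore subunits to the membrane and slows their inactivation, was the gene of the family with the largest difference. Its level was 49.9 and 53.0 FPKM in the libraries of ECsXAV and 206 and 179 FPKM in those of CPC cardiomyocytes. Both CPC libraries stood above both ECsXAV libraries, with means 3.74-fold apart. The log2 fold change was 1.88 (standard error 0.13, 95% confidence interval 1.55 to 2.21, limma adjusted p = 0.0106). Without CPC replicate 1 the adjusted p was 0.0507 and without ECsXAV replicate 2 it was 0.0532, with log2 fold changes of 1.78 and 1.92. Of the 8 cardiomyocyte markers, 3 were higher in both ECsXAV libraries and 2 in both CPC libraries, beside 25.4% and 24.4% of all genes tested. Of these markers, 1 was called in each direction, beside 1.44% of all genes tested for ECsXAV and 0.71% for CPC. MYH6, the atrial-type myosin heavy chain, was 2.32-fold higher in CPC cardiomyocytes (limma adjusted p = 0.0358). The myosin heavy chain MYH7 was 5.70-fold higher in ECsXAV cardiomyocytes (limma adjusted p = 0.0115). The part of the cardiomyocyte markers in the KCNIP2 result was not tested. KCNIP2 lies at chr10:103585731-103603677 on the minus strand (GRCh37), where exons of the antisense gene KCNIP2-AS1 overlap it, and whether the FPKM used strand is not given in the sources used here.

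A single RefSeq transcript carried most of the KCNIP2 signal. Transcript NM_173194 carried 79.3% and 77.8% of the gene's FPKM in ECsXAV and 84.0% and 83.6% in CPC cardiomyocytes. It was therefore the main of 7 listed transcripts in each library, and each of the remaining 6 stayed at or under 12.8%. The Kv4 pore subunits that KChIP2 binds were themselves low. KCND3, Kv4.3, had 0.223 and 0.0741 FPKM in ECsXAV and 0.107 and 0.0930 FPKM in CPC cardiomyocytes, and KCND2, Kv4.2, did not exceed 0.0351 FPKM in any library. KCND1, Kv4.1, was at 0.470 and 0.519 against 0.990 and 0.777 FPKM, with both CPC libraries above both ECsXAV libraries. None of the 3 reached the 1 FPKM needed for the test, and with a minimum of 0.5 FPKM, under which 2.06% of genes were called (1.38% higher in ECsXAV and 0.688% higher in CPC), KCND1 was not called (log2 fold change 0.33, limma adjusted p = 0.279).

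KCNIP4, a relative of KCNIP2 known mostly from neurons, differed little between the groups. Its level was 23.1 and 19.8 FPKM in ECsXAV and 22.7 and 19.9 FPKM in CPC cardiomyocytes, a log2 fold change of -0.01 with a 95% confidence interval of -0.35 to 0.34. KCNIP2 accordingly made up 70.6% ± 3.20 (SD, n = 2) of the summed FPKM of the pair in ECsXAV and 90.0% ± 0.0822 (SD, n = 2) in CPC cardiomyocytes. Exons of KCNIP4 overlap those of PACRGL, so a part of its reads may be shared.

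KCNH7, which encodes Kv11.3, an ether-à-go-go related pore subunit known mainly from the nervous system, was the called gene in the other direction. Its libraries were at 16.3 and 18.4 FPKM for ECsXAV and at 6.16 and 3.79 FPKM for CPC cardiomyocytes. Both CPC libraries stood below both ECsXAV libraries, whose mean was 3.48-fold higher. The log2 fold change was -1.64 (standard error 0.22, 95% confidence interval -2.21 to -1.08, limma adjusted p = 0.0397). Leaving out any of the 4 libraries took the adjusted p to between 0.0657 and 0.154, with the log2 fold change between -1.93 and -1.35. When replicate number entered the fit as a block, the adjusted p was 0.0620, with 1.42% of all genes called (0.944% higher in ECsXAV and 0.476% higher in CPC).

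The 8 neural and neural crest markers summed to 7.08 to 7.44 FPKM in ECsXAV and 5.0 to 5.72 FPKM in CPC cardiomyocytes. TUBB3, a neuronal tubulin, had 3.69 and 3.39 against 0.498 and 0.650 FPKM (log2 fold change -1.53, limma adjusted p = 0.0199), whereas SNAP25, a synaptic vesicle fusion protein, had 2.59 and 2.24 against 4.86 and 4.07 FPKM. In all, 4 of the 8 markers were higher in both ECsXAV libraries and 1 in both CPC libraries, beside 25.4% and 24.4% of all genes tested. Of the 4, STMN2, SYT1 and MAP2 had means under 1 FPKM, where 13.1% and 9.74% of symbols separated in these directions. The part of neural cells in the KCNH7 result was not tested. Exons of KCNH7, at chr2:163227917-163695277 on the minus strand, overlap exons of GCA on the other strand, and GCA had 12.5 and 11.0 against 11.3 and 7.70 FPKM. The full-length transcript NM_033272 held at least 85.9% of the FPKM of KCNH7 in each library.

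**Figure D4:**
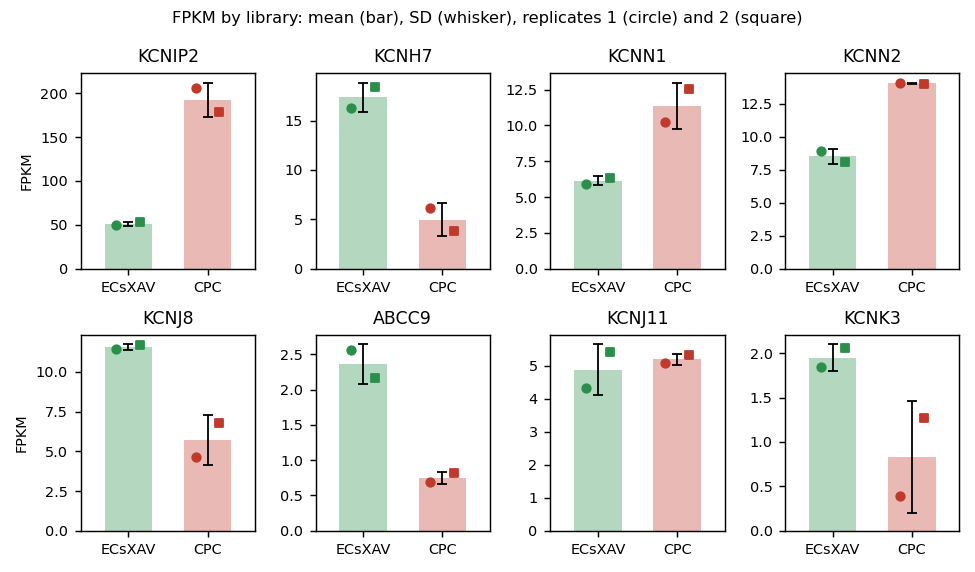
FPKM of 7 potassium channel genes and of ABCC9, with bars for the mean of 2 libraries, whiskers for the SD, circles for replicate 1 and squares for replicate 2. KCNIP2, KCNN1 and KCNN2 are higher in both CPC libraries, KCNH7, KCNJ8, ABCC9 and KCNK3 in both ECsXAV libraries, and KCNJ11 overlaps between the groups; only KCNIP2 and KCNH7 were called.

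KCNH2, the hERG pore subunit of the rapid delayed rectifier current IKr and a close relative of KCNH7, overlapped between the groups. It had 29.4 and 33.9 FPKM in ECsXAV and 24.8 and 32.0 FPKM in CPC cardiomyocytes, a log2 fold change of -0.16 (95% confidence interval -0.58 to 0.27). KCNH7 was 35.4% ± 0.344 (SD, n = 2) of the summed FPKM of both genes in ECsXAV and 15.2% ± 6.58 (SD, n = 2) in CPC cardiomyocytes. KCNE2, a small auxiliary subunit reported to associate with hERG, had 2.93 and 2.85 against 2.94 and 4.80 FPKM, so that CPC replicate 2 alone stood apart (log2 fold change 0.30, limma adjusted p = 0.531).

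The KCNH2 transcripts were split between 2 starts. Transcripts from the upstream 1a start held 58.1% and 60.7% of the FPKM of KCNH2 in ECsXAV and 45.7% and 39.3% in CPC cardiomyocytes. The shorter 1b start, which gives a channel subunit with a truncated N terminus and faster closing, held the rest, 12.3 and 13.3 FPKM against 13.5 and 19.4 FPKM. Shares of the 1a start were 59.4% ± 1.79 (SD, n = 2) and 42.5% ± 4.53 (SD, n = 2), so the groups did not overlap. Such splits are estimates of the authors' quantification and carry no test at n = 2.

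**Figure D5:**
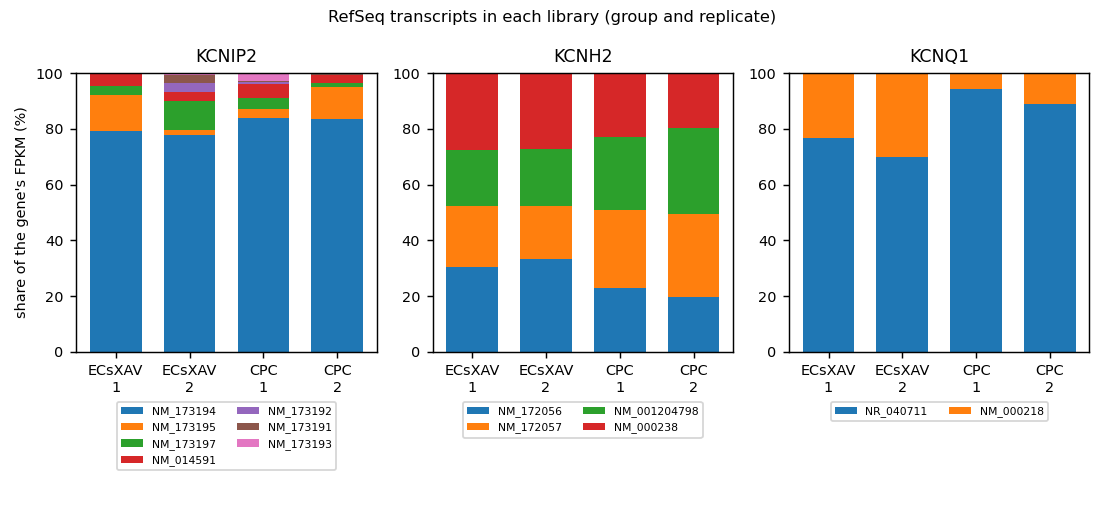
Share (%) of the FPKM of KCNIP2, KCNH2 and KCNQ1 given to each RefSeq transcript in each library, with colors defined separately under each panel. NM_173194 fills 77.8% to 84.0% of KCNIP2 in all libraries; for KCNH2 the 1a transcripts NM_172056 and NM_000238 (blue and red) take less of the bar in CPC cardiomyocytes; for KCNQ1 the coding transcript NM_000218 (orange) takes 5.66% to 29.9%.

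Among the KCNQ genes, KCNQ5 (Kv7.5) was the highest and overlapped between the groups, at 17.3 and 15.5 against 16 and 18.4 FPKM (log2 fold change 0.06, 95% confidence interval -0.26 to 0.39). KCNQ1, the pore subunit of the slow delayed rectifier IKs, had 6.49 and 7.26 FPKM in ECsXAV and 6.82 and 8.41 FPKM in CPC cardiomyocytes, a log2 fold change of 0.13. Most of this signal was not assigned to a coding transcript. The noncoding RefSeq record NR_040711 took 76.7% and 70.1% in ECsXAV and 94.3% and 89.0% in CPC cardiomyocytes. What remained for the coding transcript NM_000218 was 1.52 and 2.17 FPKM against 0.386 and 0.929 FPKM, with both ECsXAV libraries above both CPC libraries. By this estimate most of the gene-level FPKM of KCNQ1 went to the noncoding record. As for KCNH2, the split between transcripts is an estimate of the authors' quantification and carries no test, with 2 libraries per group. The antisense gene KCNQ1OT1 overlaps KCNQ1 and did not exceed 0.140 FPKM. KCNE1, the auxiliary subunit of IKs, was at 1.58 and 1.81 against 1.0 and 1.96 FPKM with overlapping groups. KCNQ3, a subunit of the neuronal M current, had 0.834 and 1.01 against 1.66 and 1.33 FPKM and was not called (log2 fold change 0.38, limma adjusted p = 0.315).

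Of the other voltage-gated pore subunits tested, none was called, but several separated by library. KCNC4 (Kv3.4) had 3.42 and 3.62 FPKM in ECsXAV and 2.14 and 2.08 FPKM in CPC cardiomyocytes (log2 fold change -0.54, limma adjusted p = 0.111). KCNG1, an electrically silent subunit, had 0.716 and 0.983 against 2.01 and 2.81 FPKM (0.88 on the log2 scale, limma adjusted p = 0.0948). Its mean FPKM were 2.83-fold apart. The limma adjusted p of KCNG1 was 0.0189 without short RNA genes and 0.0248 with a robust variance prior, with the same log2 fold change. With a pseudocount of 0.5 the log2 fold change was 1.10 (limma adjusted p = 0.0988). KCNA7 (Kv1.7) was also higher in both CPC libraries, at 1.15 and 1.71 against 3.77 and 2.44 FPKM (0.75 on the log2 scale, limma adjusted p = 0.179). By contrast the silent subunit KCNS3 had a log2 fold change of 0.07 with an interval within a 2-fold change of FPKM + 1. KCNA5, the pore subunit of the ultrarapid current IKur of human atria, varied more within groups than between them, at 1.25 and 1.79 against 0.955 and 2.29 FPKM. KCNA4 (Kv1.4), which carries a slowly recovering transient outward current, was at 0.625 and 0.861 against 1.22 and 0.954 FPKM and was below the 1 FPKM minimum.

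Among inward rectifiers, the genes that couple to acetylcholine and those that set the resting potential overlapped between the groups. KCNJ5 (Kir3.4) had 23.8 and 22.6 FPKM in ECsXAV and 27.5 and 23.2 FPKM in CPC cardiomyocytes, a log2 fold change of 0.12 (95% confidence interval -0.21 to 0.45). Its partner in the atrial acetylcholine-activated channel, KCNJ3 (Kir3.1), was at most 0.0642 FPKM in any library. KCNJ4 (Kir2.3) was the highest of the Kir2 genes, at 10.9 and 14.8 against 11.3 and 14.1 FPKM, with a log2 fold change of -0.00 and an interval from -0.50 to 0.49. KCNJ12 (Kir2.2) followed at 3.32 and 3.50 against 4.27 and 3.27 FPKM. KCNJ18, a near-identical copy of KCNJ12, was listed below 0.0001 FPKM in every library, so how reads were divided between these copies is uncertain. KCNJ2 (Kir2.1), the main Kir2 gene of adult ventricle, had only 0.0785 and 0.104 against 0.0803 and 0.131 FPKM. KCNJ4 thus held 78.3% ± 2.95 (SD, n = 2) of the summed FPKM of KCNJ2, KCNJ4 and KCNJ12 in ECsXAV and 76.4% ± 5.97 (SD, n = 2) in CPC cardiomyocytes.

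Of the ATP-sensitive channel genes, KCNJ8 separated by library and KCNJ11 did not. KCNJ8 (Kir6.1), the pore subunit of vascular ATP-sensitive channels, had 11.4 and 11.7 FPKM in ECsXAV and 4.61 and 6.81 FPKM in CPC cardiomyocytes. Both ECsXAV libraries stood above both CPC libraries, but KCNJ8 was not called (log2 fold change -0.92, standard error 0.18, 95% confidence interval -1.40 to -0.44, limma adjusted p = 0.0844). Its limma adjusted p was 0.0151 without short RNA genes and 0.0221 with a robust variance prior, with the same log2 fold change. That is short of the 2-fold threshold on FPKM + 1, while the mean FPKM of KCNJ8 were 2.02-fold apart. KCNJ11 (Kir6.2), the pore subunit in ventricular myocytes, overlapped at 4.34 and 5.42 against 5.09 and 5.31 FPKM. KCNJ8 made up 70.3% ± 2.94 (SD, n = 2) of the pair in ECsXAV and 51.9% ± 6.08 (SD, n = 2) in CPC cardiomyocytes. ABCC9, the SUR2 regulatory subunit whose gene lies 21788 bases from KCNJ8 on chromosome 12 (GRCh37), had 2.56 and 2.16 against 0.687 and 0.813 FPKM and, as for KCNJ8, was not called (log2 fold change -0.94, limma adjusted p = 0.0559). It was singled out after its values were seen. ABCC8, the SUR1 subunit next to KCNJ11, stayed between 0.0755 and 0.166 FPKM.

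The summed level of smooth muscle and pericyte markers was likewise higher in both ECsXAV libraries. Of 8 such markers, 5 were higher in both ECsXAV libraries and 1 in both CPC libraries, beside 25.4% and 24.4% of all genes tested. PDGFRB, among the 5, and MYH11 had means under 1 FPKM, where 13.1% and 9.74% of symbols separated in these directions. The sums of the 8 markers, 324 to 366 and 199 to 210 FPKM, did not overlap. TAGLN, a smooth muscle actin-binding protein, had 116 and 108 FPKM in ECsXAV and 15.8 and 22.6 FPKM in CPC cardiomyocytes (log2 fold change -2.51, limma adjusted p = 0.0127), and CNN1 had 94.2 and 94.9 against 45.5 and 60.5 FPKM. MYH11 was the 1 marker higher in both CPC libraries, at low levels of 0.0844 and 0.154 against 0.351 and 0.433 FPKM. ACTA2 and MYOCD overlapped between the groups. None of the 8 was at 0 in all libraries. The part of these 8 markers in the difference of KCNJ8 was not tested.

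K2P channels, which leak potassium at rest, were low in both groups. KCNK3 (TASK-1), an acid-sensitive channel of atrial myocytes and smooth muscle, had 1.84 and 2.05 FPKM in ECsXAV and 0.386 and 1.27 FPKM in CPC cardiomyocytes (log2 fold change -0.73, limma adjusted p = 0.259). KCNK6 (TWIK-2) had 1.47 and 1.65 against 0.679 and 0.831 FPKM (log2 fold change -0.55, limma adjusted p = 0.158). KCNK1 (TWIK-1), below the minimum, had 0.830 and 0.736 against 0.531 and 0.405 FPKM. All 3 were higher in both ECsXAV libraries, yet neither of the 2 tested was called, and KCNK13 at 0.514 to 0.898 FPKM overlapped. The stretch-activated KCNK2 (TREK-1) was at 0 in 3 libraries and at 0.0177 FPKM in CPC replicate 2.

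Small-conductance calcium-activated channels were higher in both CPC libraries, but neither KCNN2 nor KCNN1 was called. KCNN2 (SK2), a channel of atrial myocytes, had 8.92 and 8.10 FPKM in ECsXAV and 14.1 and 14.0 FPKM in CPC cardiomyocytes (log2 fold change 0.66, standard error 0.11, limma adjusted p = 0.0575). KCNN1 (SK1) had 5.91 and 6.35 against 10.3 and 12.5 FPKM (log2 fold change 0.79, standard error 0.14, limma adjusted p = 0.0627). The upper bounds of their 95% confidence intervals were 0.95 and 1.15, so a 2-fold difference in FPKM + 1 lay outside the interval of KCNN2 and inside that of KCNN1. Without short RNA genes the limma adjusted p was 0.0175 for KCNN2 and 0.0137 for KCNN1. With a robust variance prior it was 0.0226 and 0.0189. The log2 fold changes were the same in these fits, under the 2-fold threshold. The balance within the pair overlapped between the groups, with KCNN1 at 41.9% ± 2.91 (SD, n = 2) of their sum in ECsXAV and 44.7% ± 3.56 (SD, n = 2) in CPC cardiomyocytes. KCNN3 (SK3) reached only 0.0811 and 0.134 against 0.175 and 0.194 FPKM. KCNN4, the intermediate-conductance channel known from blood cells and epithelia, had 0.0443 and 0.0442 FPKM in ECsXAV and 0 and 0.0278 FPKM in CPC cardiomyocytes, levels of at most 2 whole-read steps per library, at which no difference can be read.

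The sodium-activated KCNT2 (Slick) had 0.752 and 0.743 FPKM in ECsXAV and 2.19 and 1.31 FPKM in CPC cardiomyocytes (log2 fold change 0.64, limma adjusted p = 0.206). KCNMA1, the large-conductance BK pore subunit, was at 0.0960 and 0.270 against 0.558 and 0.467 FPKM. Both KCNMA1 values in CPC cardiomyocytes lay above both in ECsXAV. Its auxiliary subunits were mixed in order. KCNMB4, the brain-type BK β subunit, had 10.9 and 10.3 against 7.44 and 8.21 FPKM (log2 fold change -0.39, limma adjusted p = 0.168), and KCNMB3 had 1.33 and 1.53 against 0.837 and 0.515 FPKM (log2 fold change -0.54, limma adjusted p = 0.207). KCNMB4 was thus above its pore subunit KCNMA1 in each library. KCNMB1, the smooth muscle β subunit, was at 0.166 and 0.265 against 0.535 and 0.333 FPKM, the same order as KCNMA1. KCNMB3 exons overlap exons of PIK3CA, which had 7.04 and 6.56 against 7.30 and 5.38 FPKM. KCNAB2, a cytoplasmic β subunit of Kv1 channels, had a log2 fold change of -0.17 with an interval from -0.52 to 0.19.

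By subfamily, the median log2 fold change was 0.06 over 11 tested voltage-gated genes with 1 called, 0.08 over 5 inward rectifiers with 0 called, -0.64 over 2 K2P genes with 0 called, 0.66 over 3 calcium-activated and Slo genes with 0 called, and -0.14 over 7 auxiliary genes with 1 called. In limma without adjustment, a p under 0.05 was reached by 4 voltage-gated genes, 1 inward rectifier, 2 K2P genes, 3 calcium-activated and Slo genes and 3 auxiliary genes, beside 18.2% of all genes tested. Of 22 genes listed for cardiac potassium currents, 14 were tested, with a median log2 fold change of 0.09. KCNIP2 was the 1 called, beside 2.15% of all genes tested. At the gene level the IKr and IKs pore genes overlapped between the groups, although the untested estimates for the coding transcript of KCNQ1 did not. For the transient outward current the auxiliary KCNIP2 differed. The 8 genes of the list under 1 FPKM were KCND2, KCND3, KCNA4, KCNJ2, KCNJ3, KCNN3, KCNK1 and KCNK2.

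None of the tested partner genes outside the name pattern was called, beside 2.15% of all genes tested. Of 25 regulatory subunits, anchors, trafficking factors and HCN pacemaker channels, 14 were tested with a median log2 fold change of -0.15, and limma called 0. An unadjusted p under 0.05 was reached by 3 (ABCC9, FHL2 and HCN2), beside 18.2% of all genes tested. With so few genes, these counts do not set the partners apart from all genes. HCN4, the main pacemaker channel, was at 27.6 and 29.3 FPKM in ECsXAV and 28.8 and 27.0 FPKM in CPC cardiomyocytes, within the range of KCNH2. FHL2, a sarcomeric adaptor known to bind the KCNE1 protein, had 332 and 366 against 440 and 553 FPKM (log2 fold change 0.50, limma adjusted p = 0.219). HCN2, a further pacemaker channel, had 1.65 and 2.28 against 1.12 and 1.18 FPKM (log2 fold change -0.45, limma adjusted p = 0.261). The dipeptidyl peptidase-like partners of Kv4 channels were low, with DPP10 at 0.220 to 0.391 FPKM and DPP6 at most 0.0735 FPKM.

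The 66 potassium channel genes under 1 FPKM carried little signal and no test. In 46 the groups overlapped, in 10 both CPC libraries were higher and in 10 both ECsXAV libraries were higher. Of all 11217 symbols under 1 FPKM, 22.9% did not overlap, 9.74% with CPC and 13.1% with ECsXAV higher. With the minimum lowered to 0.5 FPKM, 37 members were tested and KCNIP2 and KCNH7 were again the only ones called. The 9 genes at 0 in every library included 4 K2P channels, KCNK15, KCNK16, KCNK17 and KCNK18, and the voltage-gated subunits KCNC2, KCNA10 and KCNG4, besides the testis channel KCNU1. They were named after their values were seen. Since total depth is unknown, a listed 0 says only that no fragment was assigned.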

How the data were processed

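Poly-A RNA-seq of 4 libraries, 2 ECsXAV and 2 CPC, was used. Groups and replicate numbers came from the sample labels, and doses from the study's methods. The authors computed the deposited FPKM with Cufflinks and UCSC annotations. The submitters' processing notes name TopHat 1.3.3 and hg19 as well. Read counts were not used here. The study's methods name Gsnap alignments, strand-specific counting and the omission of multiply aligned reads for those counts. Whether the FPKM share these settings is not given in the sources used here, which affects overlapping genes and near-identical copies.

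The row with the highest mean was kept per symbol. The log2(FPKM + 1) values of 12398 genes with a mean of at least 1 FPKM were fitted with limma (version 3.58.1, R 4.3.3; intensity trend) and Benjamini-Hochberg adjustment. The added 1 understates changes of low genes. Each p measures the spread between 2 biological replicates per group and relies on variance shared across genes. The fit was tested on simulated data with independent normal noise and 200 genes shifted by more than 2-fold. It recovered 81.5% of these, with 4 false calls. Genes near the 1 FPKM minimum were not shifted, so smaller changes and the lowest genes were not covered. Relative depth came from whole-read steps of genes at 0.005 to 0.1 FPKM and was 100%, 50.1%, 86.9% and 79.8% (ECsXAV 1 and 2, CPC 1 and 2), so low values are coarsest in ECsXAV replicate 2. Positions and coding sequences came from GENCODE 44 lifted to GRCh37. Tables were made with pandas 2.3.3 and NumPy 2.4.6 under Python 3.11.15, and plots with matplotlib 3.10.9.

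Named genes are the members with a mean of at least 1 FPKM, those of the cardiac current list, the highest of each subfamily, KCNN4 and any partner called; members at 0.5 to 1 FPKM could be named with levels. Results for some single genes are not reported here, though these genes are in the counts, medians and sums. Members and lists were chosen with earlier results of these data known. Alternatives were pseudocounts of 0.1 and 0.5, minimums of 0, 0.5 and 5 FPKM, quantile and median-of-ratios scaling, variance priors without trend or robust, the replicate block, omission of short RNA genes, summed loci, the isoform table and each library left out.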

Additional observations from a re-analysis of the deposited data

How the results depend on the processing

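With no filter on low FPKM, 0 potassium channel genes were called (0 higher in ECsXAV, 0 higher in CPC, 0 of the cardiac current list) and 20 of all genes, against 266 with the 1 FPKM minimum and 152 with a minimum of 5 FPKM. The adjusted p was then 0.0526 for KCNIP2 and 0.0910 for KCNH7. With the replicate number as a block, 1 potassium channel gene was called, 0 of them higher in ECsXAV, and 176 of all genes, and KCNIP2 kept its call (adjusted p = 0.0293). The pairing rests on the numbers in the sample names alone: replicate 1 minus replicate 2 differences correlated between the groups with Pearson's r of 0.0349 and Spearman's rho of 0.356 over 12398 genes, which are not independent replicates. With the block and without short RNA genes, a choice made after seeing the data, 2 potassium channel genes and 346 of all genes were called. Leaving out each library in turn gave 0 to 1 potassium channel genes called, 0 to 0 higher in ECsXAV, 0 to 1 higher in CPC, 0 to 1 of the cardiac current list and 59 to 159 of all genes (59 without CPC replicate 1, 85 without CPC replicate 2, 127 without ECsXAV replicate 2, 159 without ECsXAV replicate 1). There a lone library is assumed to vary like the other group. The cause of these losses was not tested.

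Over 27 named genes and 18 settings, 442 of 468 log2 fold changes kept their direction and their status as called or not, 9 lost a call and 17 changed sign. Some of the 442 passed a 2-fold change without a call. With a pseudocount of 0.1, KCNG1 was at 1.40, KCNK3 at -1.32 and KCNJ8 at -1.03. No sign change concerned KCNIP2 or KCNH7. With all libraries, KCNA5 was at -0.0095 with a pseudocount of 0.1, KCNIP4 at 0.0024 after quantile normalization and KCNJ4 at 0.0027 after median-of-ratios scaling. With a library left out, log2 fold changes ranged from -0.36 to 0.39 for KCNA5, -0.43 to 0.14 for KCNE1, -0.34 to 0.021 for KCNH2, -0.12 to 0.10 for KCNIP4, -0.051 to 0.21 for KCNJ11, -0.046 to 0.26 for KCNJ12, -0.21 to 0.20 for KCNJ4, -3.6e-06 to 0.24 for KCNJ5, -0.0076 to 0.26 for KCNQ1 and -0.031 to 0.16 for KCNQ5. Total depth limits what can be said of genes under 0.1 FPKM, where a library holds a few whole-read steps.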
